A study of Mus musculus with 6 samples.

Results

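The genes described here are 10 components of bone morphogenetic protein (BMP) and transforming growth factor beta (TGF-beta) signalling in brain endothelium. They comprise the receptor genes Eng, Acvrl1, Bmpr2, Tgfbr1 and Tgfbr2, the inhibitory SMAD genes Smad6 and Smad7, and the target genes Id1, Id2 and Id3. They were taken by name from a list chosen with earlier results of these data known, and matched through their Ensembl identifiers. All 10 were found among the 43271 identifiers of the deposited count table, and all 10 were among the 14101 genes abundant enough to be tested.

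RNA came from primary brain microvascular endothelial cells of wild-type C57BL/6 mice, which in the living brain line the capillaries and seal the blood-brain barrier. Confluent monolayers were exposed for 24 h to dimethyl sulfoxide as vehicle (DMSO) or to 5000 ng/ml dolutegravir (DTG), an inhibitor of the HIV integrase, with 3 libraries per group. Both groups shared a medium with vascular endothelial growth factor, epidermal growth factor, heparin, hydrocortisone and 5% fetal bovine serum, and cells lay between passages 2 and 6. Library names carry an undefined P4 or P5 tag, with P4 on DMSO replicate 1 and DTG replicates 2 and 3, and P5 on DMSO replicates 2 and 3 and DTG replicate 1. Neither the age nor the sex of the mice is stated, nor whether each library is its own culture. The p-values thus reflect only the spread among these samples, and that spread may be technical. The series title frames the question as one of endoplasmic reticulum (ER) stress and barrier disruption.

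As background, endothelial cells read circulating BMPs through ALK1, the type I receptor encoded by Acvrl1, which works in a complex with the type II receptor BMPR2 and the co-receptor endoglin (Eng). This complex phosphorylates SMAD1 and SMAD5 and switches on the Id genes and the feedback inhibitors Smad6 and Smad7. TGF-beta itself binds the type II receptor encoded by Tgfbr2, which recruits ALK5 (Tgfbr1) and acts through SMAD2 and SMAD3. Inherited loss of Eng or Acvrl1 causes hereditary haemorrhagic telangiectasia, a disease of fragile arteriovenous vessels, and loss of BMPR2 causes pulmonary arterial hypertension.

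Libraries held between 41162353 and 56316335 counts. Across genes, the 4 DMSO and DTG pairs that share a P tag deviated together from their group means (correlations of 0.134 to 0.226), and the 5 pairs that do not share it deviated oppositely (-0.295 to -0.0744). The tag is unbalanced between the groups. Within DTG, replicate 1, the P5 library, lay apart from replicates 2 and 3, with a chi-square per gene of 57.1 and 45.6 against 8.65 between those. Within DMSO the libraries did not group by tag. Replicates 1 (P4) and 2 (P5) were closest at 20.6, and the P5 replicates 2 and 3 stood at 40.2. With the tag as a term the same number of the 10 genes passed, 4 as lower and 0 as higher. The DTG libraries carried an ER stress response, with the ER chaperone gene Hspa5 higher by 4.22 ± 0.14 log2 (SE), the CHOP gene Ddit3 by 4.91 ± 0.23 and Atf4 by 2.45 ± 0.16. All 10 endothelial markers examined were detected, which fits the labelled cell type. Of them, 8 were lower in DTG, beside 29.3% of all genes tested. The summed level of the 10 markers was 11257 to 12274 CPM (counts scaled to TMM-adjusted library size) in DMSO libraries and 6968 to 7327 CPM in DTG libraries. In bulk RNA, fewer cells of a type and less RNA per cell cannot be told apart. Markers of other cells were scarce: the 8 microglia and macrophage markers summed to at most 0.373 CPM in any library, with C1qa, C1qb and Tyrobp at 0 counts. Whether an exact 0 in this table, here or below, reflects missing transcripts or the way reads were counted was not tested. The 8 pericyte markers summed to 1.36 to 2.99 CPM in DMSO and 2.01 to 2.38 CPM in DTG, with Rgs5 and Kcnj8 at 0. The 6 fibroblast markers summed to 6.52 to 7.50 and 7.76 to 8.68 CPM, mostly Pdgfra. The smooth muscle list summed to 157 to 185 CPM in DMSO and 102 to 116 CPM in DTG, nearly all of it Smtn, with Cnn1 at 0. Astrocyte markers summed to 3.15 to 5.44 CPM in DMSO and 1.67 to 2.23 CPM in DTG, and neuron markers to at most 0.322 CPM in DMSO and 2.21 to 6.04 CPM in DTG, mostly Tubb3. Their part in the results below was not tested.

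In DTG-treated cells, 4 of the 10 genes fell and none rose. The 4 were Acvrl1, Tgfbr2, Smad6 and Id2, with decreases between 1.31-fold and 1.65-fold, while Eng, Bmpr2, Tgfbr1, Smad7, Id1 and Id3 did not pass. Calls are from edgeR's quasi-likelihood test with Benjamini-Hochberg adjustment over all genes tested, at a threshold of 0.05, and changes are in TMM-scaled CPM. Of all genes tested, 56.7% passed in either direction, 27.4% as higher and 29.3% as lower, and among the 9258 genes with a mean of at least 10 CPM 61.0% passed. The 4 of 10 called thus lie below the share of all genes called in either direction. At an unadjusted p under 0.05, 5 of the 10 were lower and 0 were higher, beside 31.9% lower and 29.5% higher over all genes tested. DESeq2 and limma-voom also gave 4 lower and 0 higher. None of the 10 changed 2-fold, a change reached by 2062 of all genes that passed (14.6% of those tested). The median log2 change was -0.24 over the 10 genes and -0.01 over all genes tested. In absolute size the median was 0.24 for the 10 and 0.37 for all.

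CPM ranges of the groups did not overlap for the same 4 genes, all lower in DTG, whereas they did not overlap for 64.2% of all genes tested, 33.1% with DTG lower. With library size as the only scaling, the median over all genes moved by -0.17 log2 from its TMM value. Higher calls then made up a smaller part of all calls, which went from 48.3% to 30.7%, or to 38.2% with upper-quartile factors. With library-size scaling 6 of the 10 genes passed as lower, beside 40.6% of all genes tested, and with upper-quartile factors 5 of the 10, beside 35.2%. Small differences are therefore tied to the scaling and are given on the TMM scale.

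**Figure D1:**
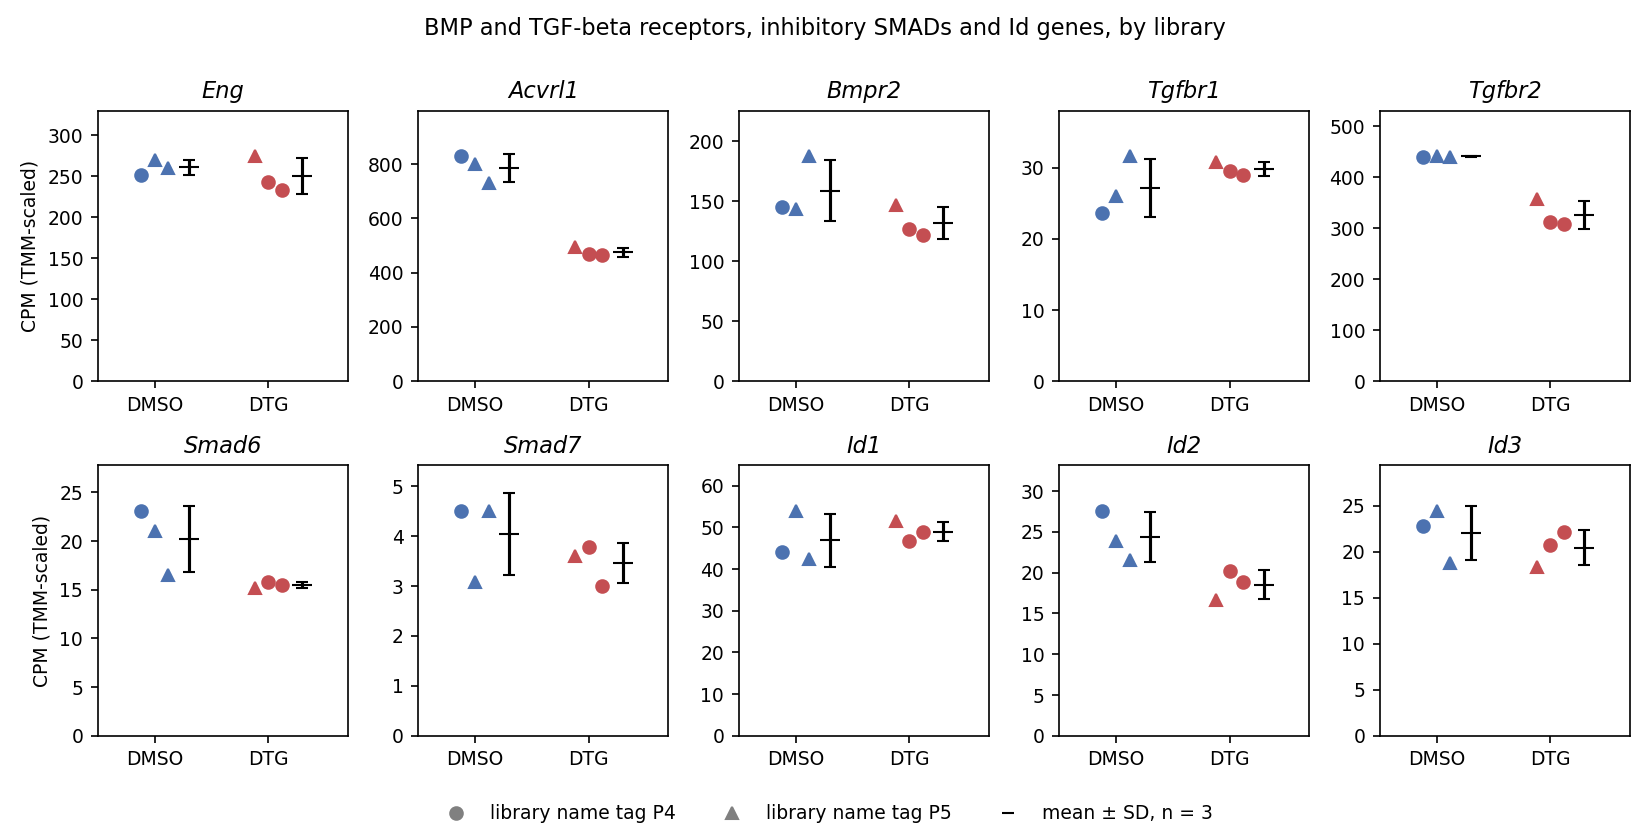
Level of each of the 10 genes in every library, in TMM-scaled CPM on axes that start at 0, with circles for libraries tagged P4, triangles for P5 and the mean ± SD of 3 libraries beside them. Acvrl1, Tgfbr2, Smad6 and Id2 have DTG libraries that lie below all DMSO libraries, and the groups of the other 6 genes overlap.

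Among the receptors, Acvrl1 (ENSMUSG00000000530), which encodes ALK1, changed most. Its level was 831, 800.3 and 730.0 CPM in DMSO replicates 1, 2 and 3 and 495, 468 and 463 CPM in DTG replicates 1, 2 and 3. Every DTG library lay below every DMSO library, and replicates within a group spread less than the gap between groups. The mean fell from 787 ± 51.7 to 476 ± 16.9 CPM (SD, n = 3 per group), which is a log2 change of -0.73 ± 0.08 (SE, edgeR adjusted p = 3.64e-05). P4 libraries alone gave -0.83 and P5 libraries alone -0.63, and 14.4% of all genes tested had a lower log2 change. The median log2 change of the 10 endothelial markers was also -0.73, and whether these decreases are linked was not tested.

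Tgfbr2 (ENSMUSG00000032440), the ligand-binding type II receptor for TGF-beta, stood at 439.5, 442 and 441 CPM under DMSO against 357, 312 and 308 CPM under DTG. The DMSO libraries were nearly identical and all DTG libraries were lower, least so the P5 library, DTG replicate 1. The mean fell from 441 ± 1.17 to 326 ± 27.4 CPM, a log2 change of -0.44 ± 0.08 (edgeR adjusted p = 0.00103), and P4 and P5 libraries alone gave -0.50 and -0.30. Acvrl1 and Tgfbr2 passed as lower in each of 16 alternative analyses of test, scaling, filter, covariate and library.

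Eng (ENSMUSG00000026814), the endoglin gene, stood at 252, 270.2 and 260.4 CPM under DMSO against 275, 243 and 234 CPM under DTG. DTG replicate 1 was the highest of the 6 libraries and DTG replicate 3 the lowest, so the groups overlapped. The log2 difference was -0.06 ± 0.08 with a 95% interval from -0.24 to 0.12 (edgeR adjusted p = 0.564), which lies above the interval of Acvrl1, -0.90 to -0.55. With library-size scaling Eng passed as lower (log2 change -0.23, adjusted p = 0.0397, range over the 16 alternatives 0.0397 to 0.950), and without DTG replicate 3 its sign turned.

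Bmpr2 (ENSMUSG00000067336), the type II BMP receptor gene, stood at 145, 143 and 188 CPM under DMSO against 147, 127 and 122 CPM under DTG. DMSO replicate 3 stood above the other libraries, and DTG replicate 1 lay above the 2 lower DMSO libraries. The log2 difference of -0.27 ± 0.12 did not pass (edgeR adjusted p = 0.0707), although its unadjusted 95% interval, -0.53 to -0.01, lay below 0. It passed as lower with library-size and upper-quartile scaling (adjusted p = 0.00846 and 0.0217, range over alternatives 0.00846 to 0.283).

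Tgfbr1 (ENSMUSG00000007613), which encodes the TGF-beta type I receptor ALK5, stood at 23.7, 26.1 and 31.7 CPM under DMSO against 30.9, 29.6 and 29.0 CPM under DTG. The DTG libraries fell inside the DMSO range. Its log2 difference was 0.14 ± 0.11 (95% interval -0.10 to 0.38, edgeR adjusted p = 0.301) and was -0.03 with library-size scaling. Without DMSO replicate 3 it passed as higher, at 0.26 log2 (adjusted p = 0.0236, range over alternatives 0.0236 to 0.812).

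Ratios within a library do not depend on scaling. The ratio of Eng to Acvrl1 CPM was 0.304, 0.338 and 0.357 under DMSO against 0.556, 0.519 and 0.504 under DTG. The ratio of Tgfbr1 to Tgfbr2 was 0.0538, 0.0590 and 0.0719 in DMSO and 0.0864, 0.0947 and 0.0942 in DTG. In both cases every DTG library exceeded every DMSO library. The ratio of Bmpr2 to Acvrl1 ranged from 0.175 to 0.257 in DMSO and from 0.264 to 0.296 in DTG, separated by a narrow gap. The ratio of Tgfbr2 to Bmpr2 overlapped between groups, at 2.35 to 3.09 and 2.44 to 2.52. For the 3 separated receptor ratios the two-sided exact permutation p was 0.1, the smallest that 3 against 3 libraries allow (0.175 adjusted over the 7 ratios computed).

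**Figure D2:**
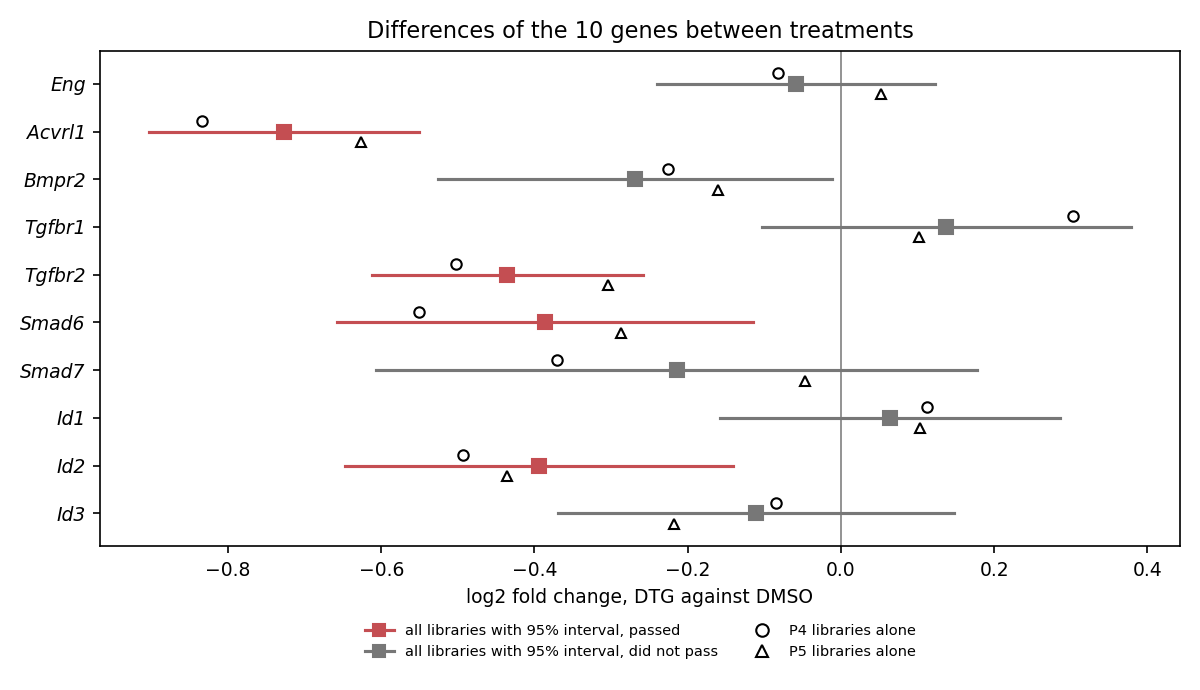
Log2 fold change of DTG against DMSO for each of the 10 genes, with squares and lines for all 6 libraries and their unadjusted 95% interval (red where the gene passed), circles for P4 and triangles for P5 libraries alone. Acvrl1 lies farthest from 0 at -0.73, and 9 of the 10 genes have the same sign within P4 and within P5, the exception being Eng.

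The inhibitory SMADs sit at the cell's feedback step: SMAD6 acts mainly against BMP signals and SMAD7 against both branches. Smad6 (ENSMUSG00000036867) stood at 23.1, 21.1 and 16.5 CPM under DMSO against 15.2, 15.8 and 15.5 CPM under DTG. The DTG libraries were tightly grouped, and DMSO replicate 3 came close to them without overlapping. The mean fell from 20.2 ± 3.42 to 15.5 ± 0.302 CPM, a log2 change of -0.39 ± 0.12 (edgeR adjusted p = 0.0204), and P4 and P5 libraries alone gave -0.55 and -0.29. Leaving out DMSO replicate 1 or 2 ended this call (adjusted p = 0.0918 and 0.0707), as did leaving out any of DTG replicates 1, 2 and 3 (0.0538, 0.0524 and 0.0658). Over all alternatives the range was 0.00183 to 0.0918.

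Smad7 (ENSMUSG00000025880) was the scarcest of the 10, with 608 counts over the DMSO and 532 over the DTG libraries. Its level was 4.51, 3.08 and 4.51 CPM under DMSO against 3.60, 3.78 and 3.01 CPM under DTG. DMSO replicate 2 lay among the DTG libraries. The log2 difference was -0.21 ± 0.18 (95% interval -0.61 to 0.18, edgeR adjusted p = 0.321), so a decrease as large as that of Smad6 falls within its interval. The ratio of Smad6 to Smad7 overlapped between groups, at 3.65 to 6.84 in DMSO and 4.17 to 5.16 in DTG (two-sided exact permutation p = 0.7, also 0.7 adjusted over the 7 ratios).

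The Id genes encode helix-loop-helix proteins that lack a DNA-binding region and hold other transcription factors away from DNA, and they serve as a standard readout of BMP signalling in endothelium. Id1 (ENSMUSG00000042745) stood at 44.2, 54.1 and 42.4 CPM under DMSO against 51.5, 46.8 and 48.8 CPM under DTG. The DTG libraries lay within the DMSO range. The log2 difference was 0.06 ± 0.10 (95% interval -0.16 to 0.29, edgeR adjusted p = 0.610), and it was -0.11 with library-size scaling.

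Id3 (ENSMUSG00000007872) stood at 22.7, 24.5 and 18.8 CPM under DMSO against 18.4, 20.7 and 22.1 CPM under DTG. Its groups overlapped over most of their range. The log2 difference was -0.11 ± 0.12 (95% interval -0.37 to 0.15, edgeR adjusted p = 0.438).

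Id2 (ENSMUSG00000020644) stood at 27.6, 23.9 and 21.6 CPM under DMSO against 16.6, 20.2 and 18.9 CPM under DTG. All DTG libraries lay below all DMSO libraries, with DMSO replicate 3 and DTG replicate 2 nearest to each other. The mean fell from 24.4 ± 3.06 to 18.5 ± 1.77 CPM, a log2 change of -0.39 ± 0.11 (edgeR adjusted p = 0.0134), and the change was -0.49 within P4 and -0.44 within P5. Without DMSO replicate 1 the call was lost (adjusted p = 0.0619, range over alternatives 0.00105 to 0.0619).

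Set against its relatives, the ratio of Id2 to the sum of Id1 and Id3 was 0.413, 0.304 and 0.352 in DMSO and 0.238, 0.299 and 0.266 in DTG. The groups were separated, though DMSO replicate 2 and DTG replicate 2 nearly met (two-sided exact permutation p = 0.1, the smallest possible, 0.175 adjusted over the 7 ratios). The ratio of Id1 to Id3 overlapped, at 1.94 to 2.26 and 2.20 to 2.80 (exact permutation p = 0.4, 0.467 adjusted).

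**Figure D3:**
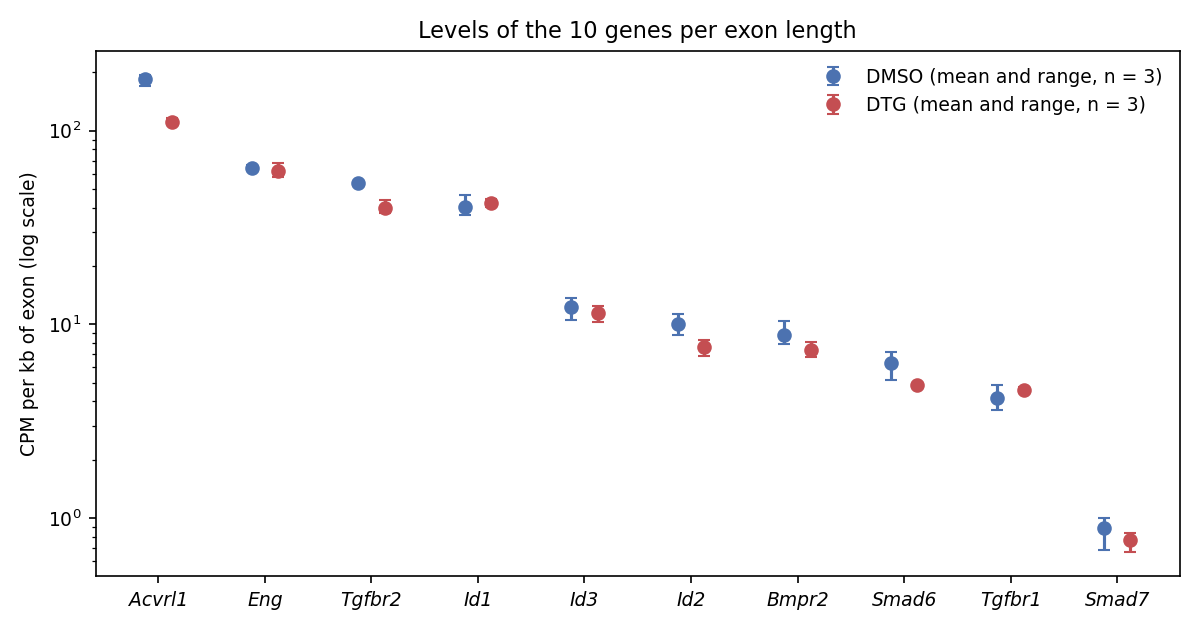
Level of each of the 10 genes as CPM per kb of exon on a log scale, ordered by the DMSO mean, with points for the mean and bars for the range of 3 libraries in each group. Acvrl1 leads in both groups at 185 and 112 CPM per kb and Smad7 is last at 0.893 and 0.766 CPM per kb.

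Per kb of exon the 10 genes spanned a wide range, and the order of their levels was nearly the same in both groups. In DMSO the level was 185 ± 12.1 CPM per kb for Acvrl1, 64.5 ± 2.21 for Eng, 53.8 ± 0.143 for Tgfbr2 and 40.4 ± 5.42 for Id1. Then came Id3 at 12.3 ± 1.63, Id2 at 9.99 ± 1.26, Bmpr2 at 8.83 ± 1.40, Smad6 at 6.31 ± 1.07, Tgfbr1 at 4.15 ± 0.631 and Smad7 at 0.893 ± 0.182 CPM per kb. Neighbours in this order did not overlap over the 3 libraries, except Id3 with Id2 and Id2 with Bmpr2. In DTG, Id1 (42.2 ± 2.03) stood beside Tgfbr2 (39.8 ± 3.35) with overlapping ranges, as did Id2 (7.61 ± 0.727) and Bmpr2 (7.33 ± 0.723). Acvrl1 remained first at 112 ± 3.97 CPM per kb and Eng the next at 61.9 ± 5.36. These values use the summed exon length of a gene over all annotated transcripts, which lowers genes with long alternative ends such as Bmpr2 (17983 bases of exon).

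Promoter windows from RefSeq (build GRCm38.p6, 250 bases before to 50 bases after a start site) were searched for 7 of the 10 genes. Acvrl1, Id1 and Smad7 were not searched. Motifs of SMAD proteins and of the ER stress factors were searched on both strands. The palindromic SMAD element GTCTAGAC occurred in 0.213% of 32851 windows, the GC-rich SMAD element core GGCGCC in 11.9% and the short SMAD box CAGAC in 49.6%. The unfolded protein response element TGACGTGG occurred in 0.676% of windows and the CHOP-ATF4 composite element TGATGNAA in 3.97%, and neither was found in the 7 windows. Shown are the windows of the 3 genes that fell and had one, and of Id3, an Id gene that did not pass. Capitals mark the matches. Smad6 holds GTCTAGAC at bases 247 to 254 of the window, across the start site. Id2 holds GGCGCC at bases 20 to 25, Tgfbr2 holds CAGAC at bases 91 to 95, and Id3 holds CAGAC at bases 84 to 88 and its reverse complement at bases 183 to 187.
Smad6, chr9:64022010-64022309, minus strand: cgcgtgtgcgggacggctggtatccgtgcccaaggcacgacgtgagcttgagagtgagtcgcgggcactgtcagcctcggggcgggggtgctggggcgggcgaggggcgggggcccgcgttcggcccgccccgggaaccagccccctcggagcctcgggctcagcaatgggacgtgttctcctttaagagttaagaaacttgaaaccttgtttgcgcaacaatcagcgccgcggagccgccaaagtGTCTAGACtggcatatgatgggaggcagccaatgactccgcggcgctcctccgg
Id2, chr12:25096043-25096342, minus strand: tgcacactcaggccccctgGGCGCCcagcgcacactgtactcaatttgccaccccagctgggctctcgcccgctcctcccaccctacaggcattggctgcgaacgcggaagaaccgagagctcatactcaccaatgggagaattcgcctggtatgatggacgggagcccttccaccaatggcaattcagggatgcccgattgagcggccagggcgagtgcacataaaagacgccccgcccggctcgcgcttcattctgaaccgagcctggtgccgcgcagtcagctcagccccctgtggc
Tgfbr2, chr9:116175314-116175613, minus strand: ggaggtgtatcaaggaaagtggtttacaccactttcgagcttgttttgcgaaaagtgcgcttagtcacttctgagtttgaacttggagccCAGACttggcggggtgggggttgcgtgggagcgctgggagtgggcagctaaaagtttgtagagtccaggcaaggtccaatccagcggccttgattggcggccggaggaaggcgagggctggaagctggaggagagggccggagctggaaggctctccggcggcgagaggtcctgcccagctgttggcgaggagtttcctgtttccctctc
Id3, chr4:136143572-136143871, plus strand: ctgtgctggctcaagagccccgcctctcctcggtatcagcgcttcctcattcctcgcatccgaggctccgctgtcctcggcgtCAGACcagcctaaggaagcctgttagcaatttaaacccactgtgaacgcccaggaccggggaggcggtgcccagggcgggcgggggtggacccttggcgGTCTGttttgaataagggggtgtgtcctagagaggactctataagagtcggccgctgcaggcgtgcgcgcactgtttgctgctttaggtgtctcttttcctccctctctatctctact

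Of the other windows, Bmpr2 and Tgfbr1 each held a GGCGCC and Eng held CAGAC on each strand. Genes that fell and genes that did not pass thus both held SMAD motifs. A match describes letters in these windows and is not evidence of binding, and a missing match says nothing beyond them.

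The rest of the pathway was read from 8 lists with 92 genes, of which 64 were abundant enough to test. Of these 16 rose and 24 fell, with a median of 0.01 log2, beside 27.4% higher and 29.3% lower over all genes tested. Among the other receptors, Acvr1, which encodes the BMP type I receptor ALK2, was the 1 of 6 tested that passed. It rose from 15.2 ± 1.35 to 20.3 ± 1.68 CPM, a log2 change of 0.42 ± 0.10 (edgeR adjusted p = 0.00582), and missed the threshold with library-size scaling (adjusted p = 0.0558, its highest over the alternatives). The activin receptor genes Acvr1b and Acvr2b missed the threshold at -0.16 ± 0.08 and -0.33 ± 0.17 log2 (adjusted p = 0.103 and 0.120). Both passed as lower with library-size scaling (adjusted p = 0.00503 and 0.0303), Acvr1b also with upper-quartile factors (0.0192) and without DMSO replicate 3 (0.0488), and Acvr2b without DTG replicate 1 (0.0182). Without DMSO replicate 3, 2 of the 6 other receptors tested were called higher and 1, Acvr1b, lower. Bmpr1a and Bmpr1b, type I BMP receptor genes, were listed at exactly 0 counts in all 6 libraries, and no level is read from these zeros.

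Few counts were assigned to ligands of the BMP branch. Of 12 BMP ligand genes, 6 were listed at exactly 0, Bmp2 among them, and only Bmp4 was abundant enough to test, at 7.85 ± 0.856 CPM in DMSO and 8.21 ± 0.540 in DTG (log2 difference 0.06 ± 0.12, adjusted p = 0.668). Gdf2, the gene of the ALK1 ligand BMP9, was also listed at 0 in every library, and Bmp10, which encodes the other ALK1 ligand, had 5 counts in DMSO and 1 in DTG. On the TGF-beta and activin side, 2 of 7 tested ligand genes rose and 2 fell, beside 27.4% higher and 29.3% lower over all genes tested. Only 1 rather than 2 rose when DMSO replicate 2, DMSO replicate 3, DTG replicate 1 or DTG replicate 2 was left out. The same held with DESeq2, library-size scaling, upper-quartile factors, the 1 CPM filter or an adjusted p under 0.01. Tgfb3 fell from 72.7 ± 7.07 to 26.5 ± 1.02 CPM, a log2 change of -1.46 ± 0.09 (edgeR adjusted p = 9.86e-07). Inhbb, an activin subunit gene, rose from 241 ± 5.11 to 416 ± 16.5 CPM (log2 change 0.79 ± 0.07, adjusted p = 1.04e-05), and Gdf11 fell by 0.57 ± 0.10 log2.

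Extracellular modulators bind or store the ligands, and 8 of 13 tested fell while 1 rose, beside 29.3% lower and 27.4% higher over all genes tested. The list's median was -0.58 log2. The 1 higher call was lost without DMSO replicate 2 or 3, with the 1 CPM filter and at an adjusted p under 0.01. Ltbp3 and Ltbp4, whose products tether latent TGF-beta in the matrix, fell by 1.03 ± 0.10 and 0.83 ± 0.11 log2. Fstl1, a secreted follistatin-like protein gene, fell from 426 ± 42.6 to 275 ± 17.4 CPM (log2 change -0.63 ± 0.09, edgeR adjusted p = 0.000217).

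Of the 5 signalling SMAD genes tested, 2 fell, the BMP-branch genes Smad1 and Smad5, beside 29.3% of all genes tested. Smad1 fell from 67.2 ± 8.42 to 47.1 ± 5.06 CPM and Smad5 from 148 ± 12.3 to 111 ± 3.87 CPM, by 0.51 ± 0.11 and 0.42 ± 0.08 log2 (edgeR adjusted p = 0.00269 and 0.00141). Smad2, of the TGF-beta branch, missed the threshold at 0.16 ± 0.07 log2 (adjusted p = 0.0907). It passed as higher when DMSO replicate 3 or DTG replicate 1 was left out (adjusted p = 0.0390 and 0.0244), and its difference was -0.01 with library-size scaling. Intracellular attenuators moved both ways, with 5 of 11 higher and 3 lower, beside 27.4% higher and 29.3% lower over all genes tested. The repressor gene Tgif1 rose from 32.3 ± 0.966 to 78.8 ± 1.07 CPM (log2 change 1.29 ± 0.07, adjusted p = 5.13e-07) while its relative Tgif2 fell by 0.71 ± 0.10 log2, and Strap, which encodes a receptor-associated protein, rose by 0.57 ± 0.08 log2.

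Beyond the Id genes, 5 of 8 tested BMP target genes fell and 1 rose, beside 29.3% lower and 27.4% higher over all genes tested. The list's median was -1.04 log2, beside -0.11 for the 3 Id genes. The gap junction genes Gja5 and Gja4, both markers of arterial endothelium, fell as well, Gja5 from 16.2 ± 4.05 to 3.66 ± 0.341 CPM and Gja4 from 4.06 ± 1.51 to 1.19 ± 0.238 CPM. Atoh8, a helix-loop-helix factor gene downstream of ALK1, fell from 4.11 ± 0.328 to 1.60 ± 0.433 CPM, by 1.36 ± 0.20 log2 (edgeR adjusted p = 0.000229). Tmem100, another gene downstream of ALK1, was near the detection limit, with 50 counts in DMSO and 13 in DTG (log2 change -1.90 ± 0.41, adjusted p = 0.00290). Msx1 fell by 0.72 ± 0.14 log2. Hey2, a target shared with Notch signalling, was the 1 that rose, from 7 counts over the DMSO libraries to 507 over the DTG libraries (adjusted p = 9.17e-05).

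Targets of TGF-beta split, with 6 of 13 tested higher and 4 lower and a median of 0.21 log2. Junb rose from 35.3 ± 4.31 to 61.0 ± 3.99 CPM and Snai1, a transcription factor gene of mesenchymal conversion, from 16.0 ± 1.53 to 25.8 ± 1.69 CPM, by 0.79 ± 0.10 and 0.68 ± 0.10 log2 (edgeR adjusted p = 9.47e-05 and 0.000249).

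**Figure D4:**
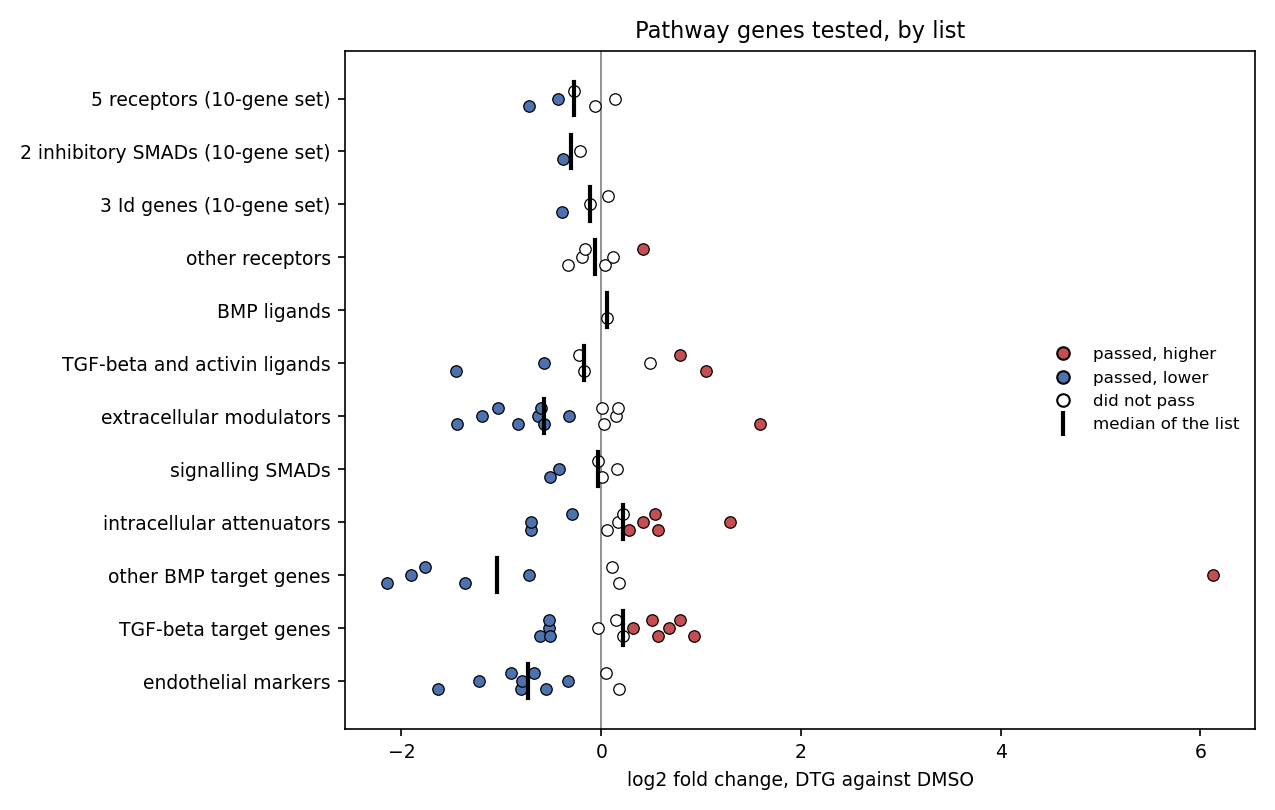
Log2 fold change of DTG against DMSO for every tested gene of the pathway lists and of the endothelial markers, 1 circle per gene, filled red where higher and blue where lower and open where the gene did not pass, with a bar at each list's median. The 3 groups of the 10-gene set lie between -0.73 and 0.14, while other BMP target genes reach from -2.15 to 6.13.

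Whether the treatment difference varied with the P tag was tested by an interaction term. No gene of 14101 passed (0.0%, edgeR), while 1351 (9.58%) had an unadjusted p under 0.05. For the 10 genes the lowest adjusted p was 0.623, for Tgfbr2, whose decrease was smaller by 0.20 log2 in P5 than in P4. With a single DMSO library in P4 and a single DTG library in P5, this comparison has little precision.

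Genes with the most similar pattern were sought among 9824 genes of at least 5 CPM, by the root mean square difference of log2 CPM from the DMSO mean over the 6 libraries. Acvrl1 was closest to Ssbp2, Sidt2 and Edc3, at 0.022, 0.030 and 0.031 log2. Tgfbr2 was closest to Dip2a at 0.013, Smad6 to St14 at 0.027 and Bmpr2 to Odf2l at 0.035 log2. Id2 was closest to Micall2 and to Ern1, the gene of the ER stress sensor IRE1, both at 0.056 log2. Eng was closest to Snx12 at 0.022, Tgfbr1 to Acer3 at 0.020, Id1 to Zfyve19 at 0.033 and Id3 to Tmem88 at 0.038 log2. Smad7 had no near neighbour, with Lpp closest at 0.106 log2. With 9824 candidates and 6 libraries some close matches occur for most patterns, and they are given as a description only.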

How the data were processed

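Polyadenylated RNA from 6 libraries (TruSeq Stranded mRNA, 2 µg RNA each) was sequenced, per the labels' protocols. The authors deposited raw counts per Ensembl gene identifier, without normalization; the genome build was GRCm39 per the submitters' processing notes, with aligner, counter and strand setting not given in the sources used here. Names matched 38606 of 43271 identifiers (89.2%); the rest held 0.327% to 0.486% of a library's counts. Exon lengths came from GENCODE (GRCm38) by identifier. The column spelled DIG is named in the label of a DTG sample.

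Counts were filtered with filterByExpr, scaled by TMM and tested across all genes with edgeR 4.0.16 in R 4.3.3 (robust quasi-likelihood test, group as the only term). SE was taken as |log2 change|/√F. Within-tag changes use log2(CPM + 0.5). Alternatives used DESeq2 1.42.0, limma 3.58.1 (voom), other scalings and filters, a replicate block, the P tag and leaving out each library. The fit was tested on simulated data in which far fewer genes changed than were called here. That run cannot decide how the scaling acts on these data. The 10 genes, lists and rule for named genes were chosen with earlier results of these data known. The rule took all 10 genes, 3 stress genes, the 3 smallest p-values of each list, all called genes of 4 lists (other receptors, BMP ligands, signalling SMADs, other BMP targets) and the 3 nearest genes by pattern. Bmpr1a, Bmpr1b, Bmp2, Gdf2 and Bmp10 were named after their values were seen. Ccn2 and Thbs1, TGF-beta target genes that passed as lower, are counted in their list but not described singly. The result of 1 gene that the rule took is not reported here. Figures used matplotlib 3.10.9.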

Additional observations from a re-analysis of the deposited data

How the results depend on the processing

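The decreases of Acvrl1 and Tgfbr2 passed under all 16 alternatives run on each gene. Of the counts, genes higher in DTG moved to 2536 with library-size scaling, and lower calls among the 10 genes dropped to 2 at an adjusted p of 0.01. Leaving out 1 library gave 2 to 4 lower calls (2 without DMSO replicate 1) and 0 to 1 higher calls (Tgfbr1, without DMSO replicate 3) among the 10. The sign turned for genes near 0: Eng without DTG replicate 3 (0.018, range over left-out libraries -0.097 to 0.018), Tgfbr1 with library size alone (-0.032), Id1 with library size and upper-quartile factors (-0.11 and -0.029) and without DMSO replicate 3 (range over left-out libraries -0.0037 to 0.18), Bmp4 with library size, upper-quartile factors and the P tag as a term (-0.11, -0.031 and -0.0017) and Smad2 with library size (-0.010 log2). The cause was not tested.

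Deviations of libraries with the same replicate number in their titles correlated at -0.295, -0.106 and -0.0744 across genes. No same-numbered pair shares a P tag, so these values cannot decide whether the numbers pair the samples. With the replicate block, 4 of the 10 genes passed as lower and 0 as higher, with 3543 genes higher and 3728 lower in all. Among the 10 genes Smad7 had the fewest counts (608 and 532), and of the other genes named Tmem100 (50 and 13) and Hey2 (7 and 507) rest on few. Of 14101 genes tested, none passed the treatment by P tag interaction with library size or the 1 CPM filter either.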
